A study of Mus musculus with 2 samples.

Results

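This account covers 10 genes: Kcnq1, Kcne1, Kcnj10, Slc12a2, Slc26a4, Gjb2, Gjb6, Cldn11, Atp6v1b1 and Pou3f4. Apart from the transcription factor Pou3f4, their products move ions into the endolymph of the inner ear or seal and couple the cells that do so. The 10 genes were chosen by name, as the probe sets that the platform annotation pairs with exactly 1 of these genes. All 10 were found, each with 1 probe set, among 19938 genes named on the array. The tissue was the ear of BALB/c fetuses taken at E18.5, near term. Of the 2 arrays, 1 held wild-type RNA and 1 held RNA from a fetus or fetuses of the same strain without functional Myf5 and Myod1. Both encode factors that turn on the skeletal muscle programme, and the series title names the role of that muscle in ear development as its subject. Which part of the ear was dissected, and whether 1 fetus or several gave the RNA, is not stated in the labels. With 1 array per genotype no test across animals was possible, and every difference lacks a replicate.

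The endolymph is the potassium-rich fluid that bathes the apical face of the hair cells. Marginal cells of the stria vascularis take potassium up through the Na-K-2Cl cotransporter and the Na,K-ATPase and release it into the endolymph through the KCNQ1 and KCNE1 channel. The KCNJ10 channel of the intermediate cells sets up the electrical potential of the cochlea, claudin-11 seals the basal cell layer, and connexin gap junctions couple supporting cells, fibrocytes and the stria. Mutations in most of these genes cause deafness in mice, people or both. In the mouse the potential itself appears only after birth.

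None of the 10 genes differed between the arrays by as much as 1.3-fold. Signal was read as log2 on the deposited scale, and a floor was set at the median of all probe sets on each array, 5.65 in wild-type ear and 5.70 in double-knockout ear. Of the 10 genes, 9 lay above the floor on both arrays and Slc26a4 lay below it on both. Of those 9, 0 fell short of wild type by 2-fold or more, where 1.71% of the 12458 genes that exceeded the floor on either array were that low. Likewise 0 were at least 2-fold higher, against 0.482% of all genes, so counts of 0 are what these background shares give for so short a list. Their median log2 difference, double knockout minus wild type, was 0.08, beside -0.01 over all 12458 genes. The 3 genes furthest from 0 were Atp6v1b1, Pou3f4 and Cldn11, all higher in the double knockout.

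**Figure D1:**
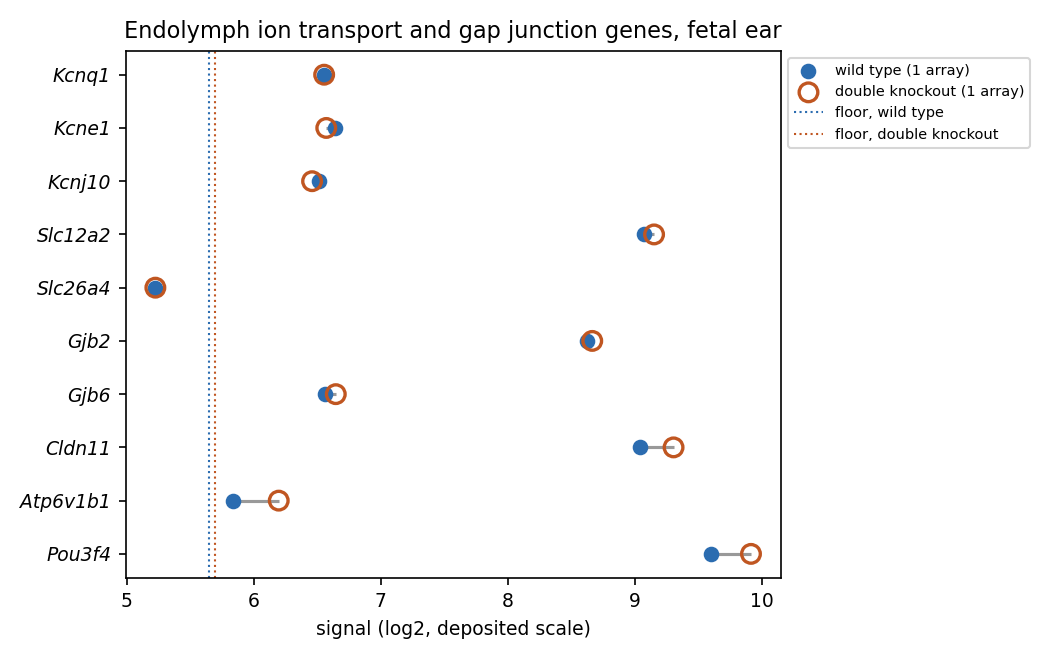
Log2 signal (horizontal axis) of the 10 genes on the wild-type array (filled blue) and the double-knockout array (open orange), with the floor of each array as a dotted line. The symbols coincide for Kcnq1 and Slc26a4 and are furthest apart for Atp6v1b1 (5.84 and 6.20), which lies close to the floor.

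Promoter windows are shown for 4 of the genes, because Myf5 and Myod1 encode proteins that bind the short DNA word CANNTG, the E-box, and because forkhead factors such as Foxi1, a regulator of the endolymphatic sac, bind words such as GTAAACA; the word TATAAA of the TATA box was searched too. RefSeq sequences on GRCm38.p6, from 250 bases before to 50 bases after the start of the gene, matched 7 of the 10 genes: Kcnj10, Slc26a4, Gjb2, Gjb6, Cldn11, Atp6v1b1 and Pou3f4. The windows below are those with a match to any of these 3 words on either strand, and capitals mark the matches. They lie at chr12:31559935-31560234 on the minus strand for Slc26a4, chr14:57104653-57104952 on the minus strand for Gjb2, chr14:57133562-57133861 on the minus strand for Gjb6 and chr6:83742767-83743066 on the plus strand for Atp6v1b1.
Slc26a4: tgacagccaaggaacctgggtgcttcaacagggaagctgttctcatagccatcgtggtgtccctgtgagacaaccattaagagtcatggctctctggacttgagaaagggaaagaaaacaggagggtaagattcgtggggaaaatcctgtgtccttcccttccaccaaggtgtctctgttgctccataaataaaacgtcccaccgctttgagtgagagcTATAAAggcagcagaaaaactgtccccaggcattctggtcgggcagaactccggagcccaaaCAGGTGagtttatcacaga
Gjb2: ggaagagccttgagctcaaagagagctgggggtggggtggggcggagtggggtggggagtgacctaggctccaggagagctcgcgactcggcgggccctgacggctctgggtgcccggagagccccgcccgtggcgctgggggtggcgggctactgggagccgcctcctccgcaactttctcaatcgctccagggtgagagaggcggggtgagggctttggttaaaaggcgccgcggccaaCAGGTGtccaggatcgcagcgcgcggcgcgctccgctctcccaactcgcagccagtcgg
Gjb6: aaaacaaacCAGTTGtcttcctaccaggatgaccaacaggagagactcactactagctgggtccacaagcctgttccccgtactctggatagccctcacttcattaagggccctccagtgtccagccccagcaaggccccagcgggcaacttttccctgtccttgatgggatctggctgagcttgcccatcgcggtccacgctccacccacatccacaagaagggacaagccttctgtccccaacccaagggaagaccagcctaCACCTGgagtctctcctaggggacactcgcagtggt
Atp6v1b1: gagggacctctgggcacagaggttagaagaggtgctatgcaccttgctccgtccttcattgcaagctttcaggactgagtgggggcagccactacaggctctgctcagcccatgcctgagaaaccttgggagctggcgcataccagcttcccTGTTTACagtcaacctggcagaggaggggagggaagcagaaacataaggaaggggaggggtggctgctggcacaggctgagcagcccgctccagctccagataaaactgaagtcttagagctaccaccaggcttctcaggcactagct

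The E-box word was found 1 time in the windows of Slc26a4 and Gjb2, 2 times in that of Gjb6, and not in those of Kcnj10, Cldn11, Atp6v1b1 or Pou3f4. Among all 32851 promoter windows of the same length 72.3% held at least 1 match. The more specific word CAGCTG was in 0 of the 7 windows and in 16.3% of all windows. CACCTG, which on the opposite strand appears as CAGGTG and is itself a form of the E-box, was in the windows of Slc26a4, Gjb2 and Gjb6 and in 20.2% of all windows. The TATAAA word stood in the Slc26a4 window and in 13.6% of all windows. The forkhead word, which is TGTTTAC on the strand shown, stood in the Atp6v1b1 window and in 3.65% of all. ATGCAAAT, the octamer that POU factors bind, was in none of the 7 windows and in 1.74% of all. The Gjb2 window was richest in G and C, at 70%, and the Slc26a4 window lowest, at 50%, beside a median of 52.7% over all windows. A match is a string of letters and not a measured binding site.

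The potassium secretory channel of the marginal cells has a pore subunit, Kcnq1, and a regulatory subunit, Kcne1. Kcnq1 (probe set 10559276) read 6.55 in wild-type ear and 6.55 in double-knockout ear, identical in every digit deposited. Kcne1 (probe set 10440989) read 6.64 in wild-type ear and 6.57 in double-knockout ear, 1.05-fold lower. Both genes lay 0.86 to 0.99 log2 units above the floor of their array. Identical values were not peculiar to Kcnq1: 1227 of the 35557 probe sets, or 3.45%, had the same value on both arrays, as did 1.26% of the 11626 genes exceeding both floors. The labels do not say how the deposited values came to be equal, so a difference of exactly 0 should not be read as a more exact match than a small one.

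Kcnj10 encodes the inward rectifier channel of the intermediate cells, which is also abundant in glia. It (probe set 10351781) read 6.51 in wild-type ear and 6.46 in double-knockout ear, 1.04-fold lower. Intermediate cells are melanocyte-like, and of 12 melanocyte markers 6 were above the floor, with 0 past 2-fold and a median difference of 0.01. Of these 6, 3 were above 0 and 3 below. Dct, an enzyme of melanin synthesis, read 6.99 and 7.32, and Kit, the receptor that melanocytes need to survive, 7.31 and 7.55. Tyrp1 read 5.99 and 6.06. Those below 0 were Pmel at 5.98 and 5.86, Mitf at 6.25 and 6.17, and Sox10 at 8.15 and 8.10. Tyr, the tyrosinase gene, lay below the floor on both arrays, at 4.25 and 4.15, as did Mlana, Slc45a2, Slc24a5, Mc1r and Oca2. The summed linear signal of the melanocyte list was 935 in wild-type ear and 1010 in double-knockout ear.

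Slc12a2 encodes NKCC1, the cotransporter through which marginal cells take up potassium, sodium and chloride. It (probe set 10455873) read 9.07 in wild-type ear and 9.15 in double-knockout ear, 1.06-fold higher. Many secretory epithelia use the same protein, acinar cells of salivary glands among them. Salivary markers differed far more than Slc12a2: of 10 above the floor 8 were at least 2-fold higher in the double knockout and 0 lower, and the summed signal of the 13 measured was 510 in wild-type ear and 11406 in double-knockout ear. In the wild type Bpifa2, Smgc, Pip, Prol1, Car6, Lpo, Muc19 and Bhlha15 were all below the floor. Dcpp1, at 7.80 and 8.83, and Aqp5, at 6.30 and 7.08, were above it on both arrays, and Dcpp1 alone gave 223 of the wild-type sum. Amy1, Dcpp2 and Dcpp3 were below the floor on both arrays. The part of gland tissue in the Slc12a2 value was not tested.

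Slc26a4 encodes pendrin, which exchanges chloride for bicarbonate and is known from the endolymphatic sac and the outer sulcus and root cells of the cochlea. It (probe set 10399854) read 5.23 on both arrays, again identical in every digit, and this is below the floor. No fold is given for it. Foxi1, the forkhead factor on which Slc26a4 depends in the endolymphatic sac, read 6.30 and 6.30, also identical in every digit. Foxi1 was named after its values were seen.

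Atp6v1b1 encodes a B subunit of the proton pump (V-ATPase) that acid-secreting cells of the inner ear and kidney use. It (probe set 10539449) read 5.84 in wild-type ear and 6.20 in double-knockout ear, 1.28-fold higher. This was the largest difference of the 10 genes, and also the one measured closest to the floor, 0.19 above it in wild-type ear and 0.50 in double-knockout ear. With low values pulled together by a pseudocount the difference was 0.22 in place of 0.36.

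Gjb2 and Gjb6 encode connexin 26 and connexin 30, which form the gap junctions of the cochlear epithelium and its connective tissue and are also made in skin. Gjb2 (probe set 10420362) read 8.62 in wild-type ear and 8.66 in double-knockout ear, 1.03-fold higher. Gjb6 (probe set 10420366) read 6.56 in wild-type ear and 6.65 in double-knockout ear, 1.06-fold higher. Neither gene moved by as much as 0.1 on the log2 scale. Of 8 epidermal markers above the floor, 2 were at least 2-fold higher in the double knockout and 0 lower. These were keratins of differentiated epidermis, Krt1 at 5.60 and 7.52 and Krt10 at 5.01 and 7.42, both under the floor in wild-type ear. The basal keratins Krt5, Krt15 and Krt14 read 9.22 and 9.27, 7.78 and 7.97, and 7.88 and 7.55. With values under the floor raised to it, 7 of the 8 markers were above 0, and Krt14 was the 1 below. Tgm1, counted as above 0, exceeded the floor only in wild-type ear. As deposited it read lower in the double knockout, at 5.66 and 5.56. Lor, Ivl, Krtdap and Evpl lay below the floor on both arrays. The summed epidermal signal was 1605 in wild-type ear and 1926 in double-knockout ear. Its part in the connexin values was not tested.

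Cldn11 encodes claudin-11, the tight junction protein of the basal cells of the stria, also made by oligodendrocytes. It (probe set 10491313) read 9.04 in wild-type ear and 9.30 in double-knockout ear, a log2 difference of 0.26. Pou3f4, a POU-domain transcription factor of the mesenchyme around the ear and of the embryonic brain, (probe set 10601459) read 9.60 in wild-type ear and 9.91 in double-knockout ear, 1.24-fold higher. Both differences lie within the range that holds the central 90% of all genes, given below.

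Some markers of brain neurons were also higher in the double knockout. Of 13 brain neuron markers above the floor, 5 were at least 2-fold higher in the double knockout, 0 were lower by as much, and the median difference was 0.60, with 11 above 0 and 2 below, Slc17a6 at -0.33 and Zic1 at -0.06. Their summed signal was 1842 in wild-type ear and 2875 in double-knockout ear, and Fezf2, a cortical transcription factor, read 6.05 and 7.85. Of 11 astrocyte and oligodendrocyte markers above the floor, 0 passed 2-fold in either direction, and the median was 0.09, with 7 above 0 and 4 below; the summed signal was 4530 and 5871. Fabp7 alone gave 2926 of this sum in wild-type ear and 4160 in double-knockout ear. It read 11.51 and 12.02, Slc1a3 8.39 and 8.79, Slc1a2 6.88 and 7.33, and Aldh1l1 5.77 and 6.33. Aqp4 went the other way, at 6.00 and, under the floor, 5.21, and Gfap was below the floor on both arrays. Myelin genes of mature oligodendrocytes, Mog and Mobp, lay below the floor on both arrays. Other genes of this lineage did not share a direction: Cnp read 8.64 and 8.30, Mag 5.99 and 5.82, Mbp 7.0 and 7.02, and Sox10 8.15 and 8.10. Olig2 and Olig1, which mark its precursors, were under the floor in wild-type ear and above it in double-knockout ear, at 5.36 and 6.14, and 4.79 and 5.73. Schwann cell markers had a median of -0.27, with 0 of 11 past 2-fold and summed signals of 4840 and 4024. Whole-tissue RNA does not tell more cells of a kind from more RNA per cell, and the part of brain tissue in the Pou3f4 and Cldn11 values was not tested.

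Read together, the 9 genes above the floor ranged from -0.07 for Kcne1 to 0.36 for Atp6v1b1. Of them 6 were above 0, 2 below 0 and Kcnq1 at 0, where 48% of all genes above the floor were above 0 and 50.8% below. At 1.2-fold or more, 2 of the 9 were higher, Atp6v1b1 and Pou3f4, and 0 were lower, beside 11.2% and 12.9% of all genes; Cldn11 stood just inside that fold. For scale, among the 11626 genes exceeding both floors the central 50% ran from -0.14 to 0.12, and the central 90% from -0.44 to 0.40. Inside the narrower band were 6 of the 9 genes, and 9 were inside the wider. Probe sets of the same gene had a pooled SD of 0.168 (619 genes with several), a measure of probe noise that says nothing of variation among animals. Differences smaller than this were found for 7 of the 10 genes, Slc26a4 below the floor included, and the exceptions were Atp6v1b1, Pou3f4 and Cldn11. Such small differences were common among all genes. The median absolute difference of the 11626 genes was also under this SD, at 0.13, beside 0.08 for the 9 genes.

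**Figure D2:**
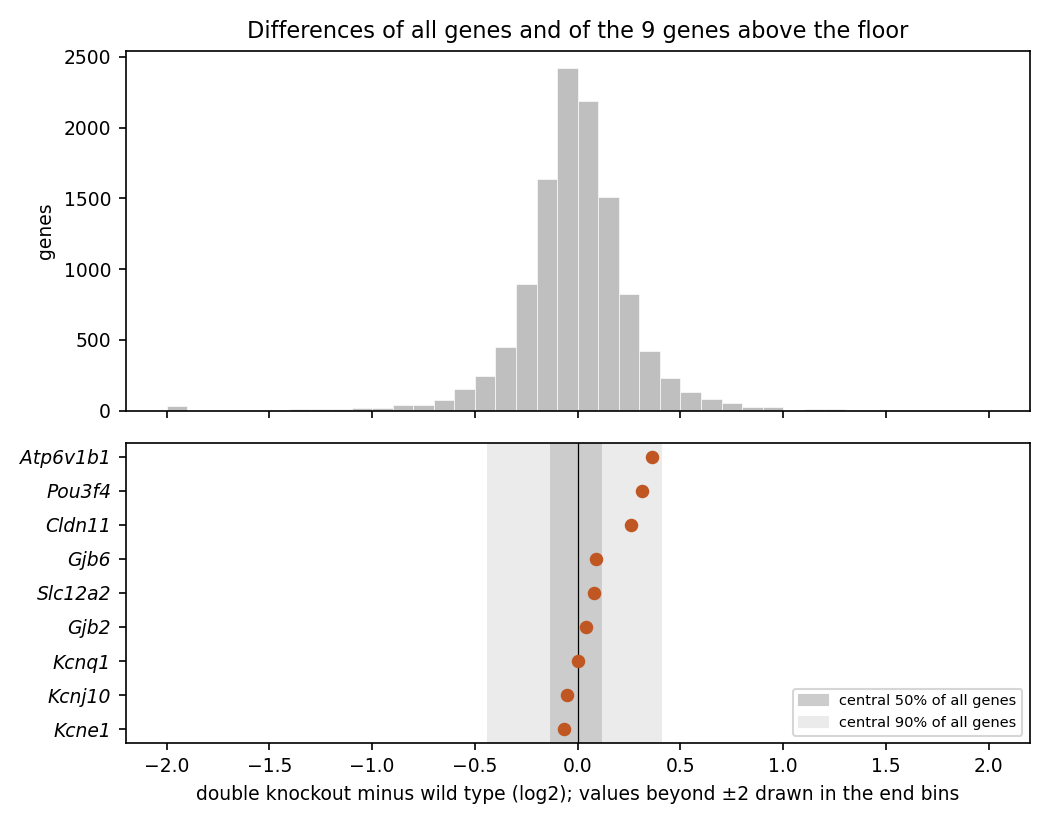
Upper panel, number of genes (vertical axis) by log2 difference, double knockout minus wild type, for the 11626 genes exceeding both floors. Lower panel, the same difference for the 9 genes of interest above the floor, over bands that hold the central 50% and 90% of all genes; 3 of them lie to the right of the inner band and none to the left of it.

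The labels and tissue were checked with a few genes. Myod1 read 6.95 and 6.38 and Myf5 5.94 and, under the floor, 5.25 in the wild type and double knockout. Whether these probe sets lie in the deleted parts is not stated in the labels. All 18 skeletal muscle markers were below wild type by 2-fold or more, and their summed signal was 33882 in wild-type ear and 819 in double-knockout ear. Of 19 otic epithelial markers 13 were above the floor, with 0 past 2-fold, a median of 0.00 and summed signals of 4307 and 4263. That median falls on Otoa and Atoh1, whose deposited values were identical on both arrays, so it should not be read as an exact match. Oc90, the main protein of otoconia, read 11.28 and 11.26, and Tecta, of the tectorial membrane, 8.74 and 8.76. Hair cell genes were split by the floor. Pou4f3, Gfi1, Lhx3, Myo15 and Strc lay below it on both arrays. Above it on both were Atoh1 at 6.17 and 6.17, Myo7a at 6.03 and 6.07, and Otof at 6.07 and 6.06. So were Cdh23 at 5.90 and 5.96 and Pcdh15 at 5.82 and 5.98, though a second Pcdh15 probe set was below it.

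Heart markers were examined because Kcnq1 and Kcne1 also form a channel of heart muscle. Of 12, only 5 lay above the floor, of which 3 were at least 2-fold lower, Actc1, Tnnt2 and Myl2. Fetal skeletal muscle also makes these 3. Myh6, Nppa, Myl7, Tnni3 and Mybpc3, which define heart muscle, were below the floor on both arrays. Nkx2-5, a transcription factor of heart muscle and some other tissues, was above it on both, at 5.70 and 6.25. The summed signal was 6381 in wild-type ear and 472 in double-knockout ear, of which Actc1 alone gave 5348 in wild-type ear. The part of heart muscle in the Kcnq1 and Kcne1 values was not tested. Osteoclasts, rich in V-ATPase, had 0 of 11 markers past 2-fold, a median of -0.01 and summed signals of 3851 and 3857. Bone and meningeal markers had 0 of 9 past 2-fold, a median of 0.08 and sums of 4822 and 5092. Airway and middle ear epithelium had 0 of 4 past 2-fold and a median of -0.21, with 1 above 0 and 3 below. That median ran from -0.27 to 0.02 under the alternatives. The sums were 2095 and 1800, of which Bpifa1 alone gave 1652 and 1432. Muc5b read 6.79 and 6.21, and Ltf 5.91 and, under the floor, 4.91.

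**Figure D3:**
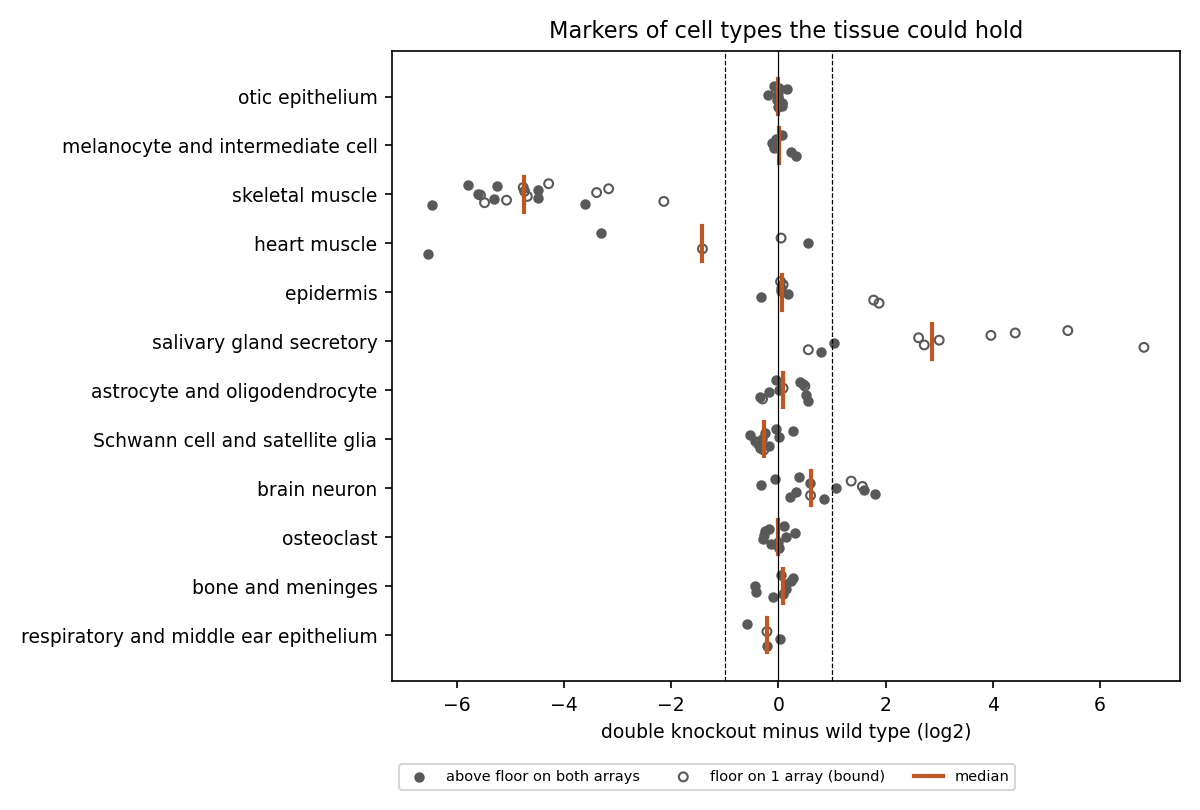
Log2 difference, double knockout minus wild type (horizontal axis), of each marker exceeding the floor on either array, by cell type. Open symbols were at the floor on 1 array and are bounds, orange bars are medians and dashed lines mark 2-fold; skeletal muscle lies far to the left (median -4.75) and salivary markers to the right (2.86), with otic epithelium at 0.00.

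Close relatives of the 10 genes were compared next, with 43 of 48 measured and 24 exceeding the floor on either array. Of those 24, 1 was below wild type by 2-fold or more and 0 were above it by as much, and the median was 0.14. The exception was Kcne1l, which encodes a KCNE-family subunit able to bind the KCNQ1 channel. It read 7.43 in wild-type ear and 5.98 in double-knockout ear, 2.74-fold lower, and from -1.47 to -1.43 on the log2 scale under 3 other scalings. With the pseudocount it was -0.95, short of 2-fold. With the floor at the 75th percentile only a bound of -0.08 was left, because that floor lies just under the wild-type signal of the gene. Skeletal muscle markers were lower on the same array, as given above, and their part in the Kcne1l, Tbx15 and Gjd4 values was not tested. Among other KCNE genes, Kcne4 read 6.28 and 5.96, Kcne3 5.74 and, under the floor, 5.42, and Kcne2 was below the floor on both arrays. Kcne1 itself did not share the size of the Kcne1l difference.

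The KCNQ relatives Kcnq3 and Kcnq5, channels of the neuronal M-current, read 6.38 and 6.43, and 6.61 and 6.90. Of the inward rectifiers, Kcnj13 read 7.55 and 7.44. Kcnj16, which joins Kcnj10 in mixed channels of glia and kidney, read 4.61 and 4.54 and lay below the floor on both, as did Kcnj1, Kcnj2, Kcnj4, Kcnj12 and Kcnj15. None of these passed 2-fold. Of the cotransporters, the potassium-chloride exporters Slc12a4 and Slc12a7 read 7.58 and 7.50, and 7.72 and 7.81. The neuronal exporter Slc12a5 read 5.64 in the wild type, under the floor, and 5.92 in double-knockout ear. The kidney cotransporters Slc12a1 and Slc12a3 were below the floor on both arrays.

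In the Slc26 family of anion exchangers, Slc26a2, the sulfate transporter of cartilage, read 7.12 and 6.87. Slc26a7 read 6.77 and 7.01, Slc26a6 5.77 and 6.06, and Slc26a11 5.74 and 6.07. Prestin, Slc26a5, the motor protein of outer hair cells, was below the floor at 3.82 and 3.89. Of the proton pump subunits, the widely made B subunit Atp6v1b2 read 9.33 and 9.33 and the catalytic subunit Atp6v1a 8.93 and 9.03, so the 0.36 of Atp6v1b1 was not seen in them. The POU factors nearest to Pou3f4 all read higher in the double knockout: Pou3f1 6.39 and 6.60, Pou3f2 5.85 and 6.03, and Pou3f3 6.74 and 7.22. A second Pou3f2 probe set, below the floor on both arrays, read 3.76 and 3.61.

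**Figure D4:**
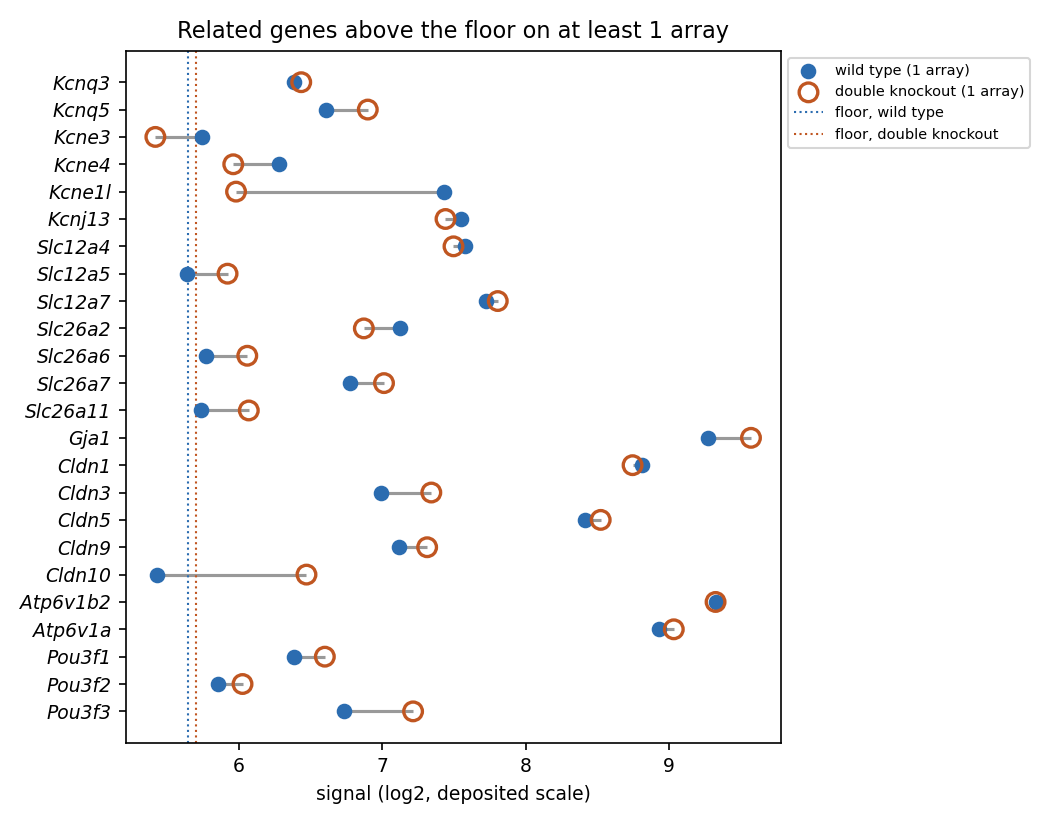
Log2 signal (horizontal axis) of the 24 relatives exceeding the floor on either array, wild type filled and double knockout open, with the floors dotted. Kcne1l has the longest bar (7.43 and 5.98); Cldn10 is below the floor in the wild type.

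Wider lists gave the rest of each pathway. In the potassium and chloride path of the stria, 13 of the 15 genes measured were above the floor, with 0 past 2-fold in either direction and a median of -0.02. The Na,K-ATPase beta subunits Atp1b1, Atp1b3 and Atp1b2 read 10.25 and 10.30, 9.34 and 9.47, and 9.24 and 8.82. Atp1b2 had the largest lower difference of this list at -0.42, and the orphan receptor gene Esrrg the largest higher at 0.23. Wnk1, a kinase that activates NKCC1 through its partner kinases, read 10.01 and 9.86, but its second probe set went the other way, 7.63 and 7.77. Bsnd, which encodes barttin, the subunit of the chloride channels of marginal cells, read 6.06 and 6.06, identical in every digit deposited. Bsnd was named after its values were seen.

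Genes of endolymph pH, calcium, water and sodium had 21 of 27 above the floor, 0 past 2-fold and a median of 0.17, with 16 above 0 and 5 below. This median ran from 0.17 to 0.20 under the 3 other scalings. The carbonic anhydrase Car3 read 12.27 and 12.35, the calcium pump Atp2b1 9.42 and 9.59, and the endothelin receptor Ednrb, needed by melanocytes, 9.35 and 9.39. The largest higher difference was that of Aqp5, a water channel of salivary acini also listed with the salivary markers, at 6.30 and 7.08, 1.73-fold higher. The largest lower difference was that of the glial water channel Aqp4, at 6.00 in the wild type and 5.21, under the floor, in double-knockout ear, at least 1.23-fold lower. The sodium channel genes Scnn1a, Scnn1b and Scnn1g were all below the floor.

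Tight junction genes had 19 of 26 above the floor, 0 past 2-fold and a median of 0.19, with 16 above 0 and 3 below, and the median ran from 0.18 to 0.21 under the other scalings. Cldn11 at 0.26 was thus within the range of its family. Tjp1, the junction scaffold, read 8.82 and 8.96, Cldn1 8.81 and 8.75, and Cldn6 8.59 and 8.77. Cldn10 had the largest difference, 5.43 in the wild type, under the floor, and 6.47 in double-knockout ear, or 1.77-fold higher at least and 1.05 on the log2 scale with no floor, and its other probe set read 5.27 and 5.83. Of other relatives of Cldn11, Cldn3 read 6.99 and 7.34, Cldn5, of endothelium, 8.41 and 8.52, and Cldn9, needed by hair cells, 7.12 and 7.31. Salivary markers and some epidermal markers were also higher in the double knockout, as given above, and their part in the claudin values was not tested.

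Connexins other than Gjb2 and Gjb6 had 9 of 14 above the floor, 0 past 2-fold and a median of -0.21, with 3 above 0 and 6 below. The median was 0.12 with no floor, so its direction depends on the low genes. Gja1, connexin 43, read 9.27 and 9.57, Gjc3, a connexin of myelinating glia, 8.37 and 7.94, and Gjc1 7.40 and 7.21. Gja5, connexin 40 of arterial endothelium and heart, read 6.60 in the wild type and 5.66, under the floor, in double-knockout ear, at least 1.86-fold lower. Gjd4, a connexin known from developing skeletal muscle, read 5.91 in wild-type ear and 4.05, under the floor, in double-knockout ear. With the floor this gives only a bound, at least 1.15-fold lower, and with no floor the difference was -1.85, past 2-fold. Gjd4 was named after its values were seen. Gjb1 and Gjb5 were below the floor on both arrays.

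V-ATPase subunits had 19 of 23 above the floor, 0 past 2-fold and a median of 0.01, the narrowest spread of these 7 wider lists, from -0.19 for Atp6ap2 to 0.27 for Atp6v1g2. Atp6ap1 read 10.03 and 10.03, Atp6v0a1 9.51 and 9.44, and Atp6v0e 9.32 and 9.39. Atp6v0a4 and Atp6v1g3, subunits that share the restricted pattern of Atp6v1b1 in acid-secreting cells, lay below the floor on both arrays, at 5.27 and 5.04, and 4.54 and 4.68; they were named after their values were seen.

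Fibrocyte and periotic mesenchyme genes, the cells in which Pou3f4 acts, had 16 of 20 above the floor and a median of 0.00, with 8 above 0 and 8 below. Of these, 1 was at least 2-fold lower, Tbx15, a T-box factor of craniofacial and limb mesenchyme, at 8.68 and 7.60; with the pseudocount its difference was -0.91, short of 2-fold. Otor, which encodes otoraplin, read 10.37 and 10.71, and Prrx1 9.90 and 9.73. Coch, the cochlin gene of the fibrocytes, read 8.63 and 8.95 and Tbx18, a factor they need, 8.86 and 9.09; Otos, another fibrocyte gene, was below the floor. Foxc2 read 8.58 and 8.50, Meis1 8.0 and 7.91, Rdh10 7.76 and 7.67, Aldh1a2 7.45 and 7.35, and Fgf10 7.15 and 7.05. These 8 genes were named after their values were seen. Regulators of endolymph genes had 19 of 20 above the floor, 0 past 2-fold and a median of 0.03. Eya1 read 9.51 and 9.55 and Sox9 8.61 and 8.95, and the largest differences were those of Dlx6 at -0.45 and Pou3f3 at 0.48.

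**Figure D5:**
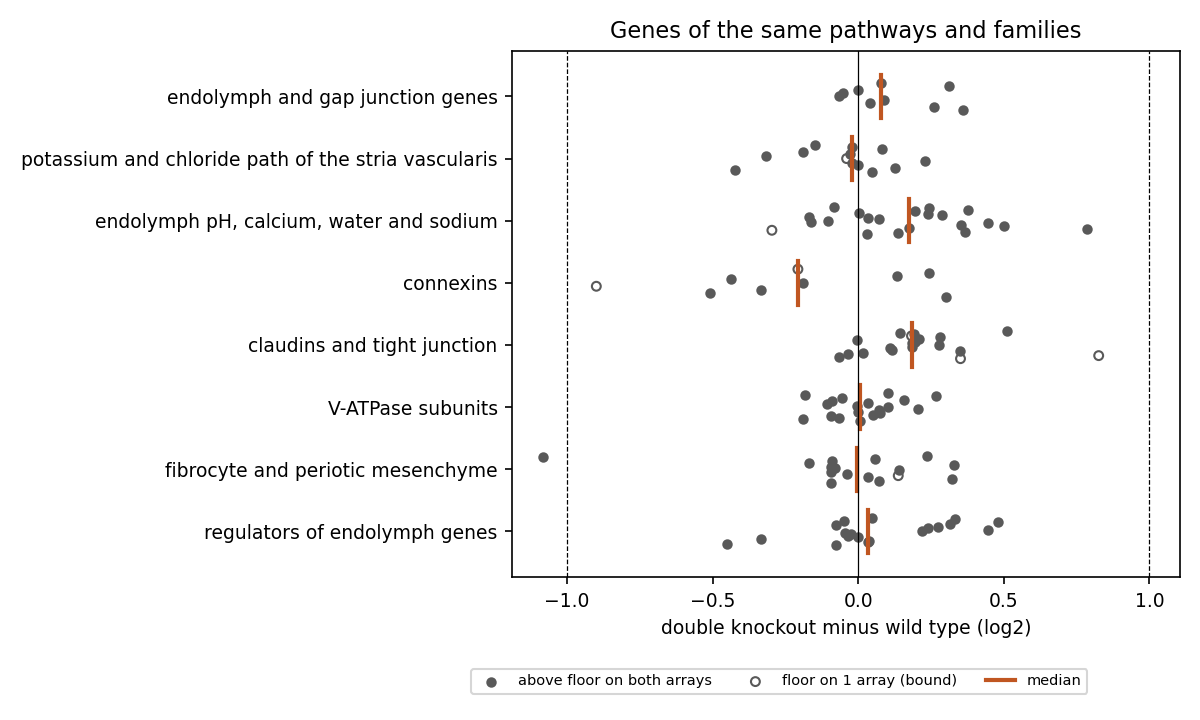
Log2 difference, double knockout minus wild type (horizontal axis), of the 9 endolymph and gap junction genes and of 7 lists of related genes, for genes exceeding the floor on either array. Open symbols are bounds, orange bars are medians and dashed lines mark 2-fold; Tbx15 is the only symbol past a dashed line.

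Neighbours on the chromosome were compared last. Gjb2 and Gjb6 lie side by side, with Gja3 next to Gjb2 and Cryl1 next to Gjb6. Gja3, a connexin of the eye lens, read 6.61 and 6.10 and Cryl1 7.26 and 7.31, so the difference of Gja3, -0.51, was not seen in the other 2 connexins of the cluster. Next to Kcne1, Rcan1 read 8.39 and 8.17. Beside Kcnj10, Pigm read 7.15 and 6.89, and Kcnj9 was below the floor on both arrays. Next to Slc12a2, Fbn2, a fibrillin, read 10.23 and 10.02. Around Slc26a4, Cbll1 read 7.71 and 7.78 and Bcap29 7.21 and 6.80. Around Cldn11, Skil read 7.06 and 7.13 and Slc7a14 7.70 and 7.47. The neighbours of Atp6v1b1 and the measured neighbour of Pou3f4 were below the floor on both arrays. None of these neighbours passed 2-fold.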

How the data were processed

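The submitters hybridised biotin-labelled cRNA, made from 6 µg of Trizol-extracted total RNA per the labels, to 1 Affymetrix array per genotype. The authors deposited 1 value per probe set and array, read here as log2 signal from its range (0.75 to 13.27); the log base is not stated. The submitters' processing notes name MAS5 without a version, and no label gives a background correction, a scaling or a genome build. Names came from the platform annotation: 21789 probe sets had 1 gene, 1621 several and 12147 none listed; 21698 matched a RefSeq gene table (GRCm38.p6), used for names and gene order.

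Per gene the probe set of highest mean linear signal was kept, values under each array's 50th percentile were raised to it, and the difference was double knockout minus wild type. A value at the floor on 1 array gives a bound ("at least"). Named genes were all 10 genes with their relatives and chromosomal neighbours and, per pathway list, the 3 of highest signal and the largest differences in each direction. Of a marker list the defining markers were named. The genes, lists and settings were chosen with earlier results of these data known. Alternatives were 3 scalings, 2 floors, no floor, a pseudocount of the median signal, the median over probe sets, and counting at 1.5-fold or 3-fold. The calculation was tested on simulated data. Python 3.11.15, pandas 2.3.3, numpy 2.4.6 and statsmodels 0.14.6 were used. With so few arrays, precision is limited throughout.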

Additional observations from a re-analysis of the deposited data

How the results depend on the processing

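The values for the 10 genes moved little with the processing. Over the 10 alternatives, each of the 95 values computed for them (single differences, their median and the counts past the fold threshold) stayed within the probe noise of 0.168, or at the same count of 0. The median ran from 0.06 with a pseudocount to 0.17 with the floor at the 75th percentile, where 4 genes entered. The sign was kept for each gene under each alternative that could be computed, except Kcnq1, which was 0 as deposited and ran from -0.02 to 0.02. Slc26a4 entered only without a floor, with the pseudocount or with the floor at the 25th percentile. Of 1094 values for other genes and lists, 40 moved by more than the probe noise. Single genes that crossed 2-fold were Kcne1l (-0.08 with the floor at the 75th percentile, -0.95 with the pseudocount), Tbx15 (-0.91 with the pseudocount), Cldn10 (1.05 with no floor or the floor at the 25th percentile) and Gjd4 (-1.85 and -1.80 in these settings). The connexin median turned from -0.21 to 0.12 with no floor and 0.07 with the pseudocount, and the heart list median went from -1.42 to -0.11 and -0.02. These settings change how genes near the floor are counted. The median of all genes moved by less than 0.1 under each setting. No paired analysis was possible because each genotype had 1 array. Low signal limits Slc26a4 and Atp6v1b1 most. Kcnq1, Kcne1, Kcnj10 and Gjb6 were also low, from 0.76 to 0.99 log2 units above the floor of their array, and did not enter with the floor at the 75th percentile.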

Other observations

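Kcnq1 lies in an imprinted region, where some genes are read from the maternal or the paternal copy alone, and the other genes of that region were looked up after the values of Kcnq1 had been seen. Cdkn1c, a maternally expressed inhibitor of the cell cycle, read 9.96 in wild-type ear and 9.43 in double-knockout ear, while its neighbour Kcnq1 read the same on both arrays. Slc22a18 read 6.18 and 6.29, Tssc4 7.03 and 6.80, and Cd81 11.04 and 10.95. Phlda2 read 5.58 in the wild type, under the floor, and 5.78 in double-knockout ear. Trpm5, the gene on the other side of Kcnq1, read 6.20 and 6.50. Ascl2 was below the floor on both arrays. None of these passed 2-fold, and they did not share a direction.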
